A study of Homo sapiens with 12 samples.

Results

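The genes described here are 45 interferon response genes, a list of symbols for transcription factors, RNA sensors, antiviral effectors and antigen processing genes that interferons are known to induce. Of the 45, 44 had a probe set that names the gene alone, out of 11963 genes measured in all, and STAT2 is not analysed here. Where several probe sets named a gene, the one brightest on average was used. The arrays measured RNA from RCC4, a human renal carcinoma cell line without working VHL, a protein that leads the hypoxia-inducible factors to destruction by the proteasome. There were 4 groups of 3 arrays. They were cells with VHL put back (VHL cells) in cystine-deprived DMEM, VHL cells in control full DMEM, cells with an empty vector (Vec cells) in cystine-deprived DMEM, and Vec cells in control full DMEM. All groups were sampled after 6 h, in medium with 10% serum, and the labels call the serum dialysed for the deprived medium alone. The lack of cystine and a difference in serum therefore cannot be told apart. Below, "deprivation" and "without cystine" name the whole change of medium. The labels do not say whether either line is a pool or a clone, so the effect of VHL and any other difference between the lines cannot be told apart. The series title asks about dependence on cystine in cells that lack VHL. The interferon genes were compared between VHL and Vec cells within each medium, between media within each line, and in the difference of the 2 medium responses.

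Interferons are secreted proteins that act on cell surface receptors. The receptors signal through JAK kinases to STAT transcription factors, which for type I interferon join IRF9 and bind a promoter motif called the interferon-stimulated response element (ISRE). A second motif, the GAS element, binds STAT dimers after type II interferon. Many of the induced genes block steps of viral replication, and others cut and transport peptides for presentation to T cells.

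Promoter sequences, 250 bases before to 50 bases after each annotated start, came from RefSeq (GRCh38.p14) and covered 34 of the 44 measured genes, with 47 promoters. The sequences below show where an ISRE-like motif lies in 4 genes that were higher in VHL cells than in Vec cells. These genes had the largest differences, at an adjusted p under 0.05, among those whose promoters hold the motif. That all 4 hold it was therefore fixed in advance. Windows of 80 bases from IFIT5 and ISG20, both lower in VHL cells, were added after their values had been seen. Capitals mark each match to GAAANNGAA, searched on both strands, where N is any base.
IFIT1, chr10:89392373-89392672, plus strand: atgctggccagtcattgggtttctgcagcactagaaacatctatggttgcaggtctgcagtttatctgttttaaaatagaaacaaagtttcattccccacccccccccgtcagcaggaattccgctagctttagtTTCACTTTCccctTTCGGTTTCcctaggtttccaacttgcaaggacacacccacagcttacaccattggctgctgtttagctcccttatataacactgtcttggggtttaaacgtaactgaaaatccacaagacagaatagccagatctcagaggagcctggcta
IFI44, chr1:78649539-78649838, plus strand: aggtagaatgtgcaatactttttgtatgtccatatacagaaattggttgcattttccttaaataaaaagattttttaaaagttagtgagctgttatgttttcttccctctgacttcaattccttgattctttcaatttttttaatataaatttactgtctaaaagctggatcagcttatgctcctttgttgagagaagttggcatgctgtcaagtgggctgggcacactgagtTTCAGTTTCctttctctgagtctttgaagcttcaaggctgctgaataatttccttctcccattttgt
IFI44L, chr1:78620198-78620497, plus strand: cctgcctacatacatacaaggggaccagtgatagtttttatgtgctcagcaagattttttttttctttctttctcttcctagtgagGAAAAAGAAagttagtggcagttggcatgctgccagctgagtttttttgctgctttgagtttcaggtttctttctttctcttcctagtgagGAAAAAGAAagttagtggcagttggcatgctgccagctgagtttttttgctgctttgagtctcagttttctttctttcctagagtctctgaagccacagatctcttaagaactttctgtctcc
ISG15, chr1:1013247-1013546, plus strand: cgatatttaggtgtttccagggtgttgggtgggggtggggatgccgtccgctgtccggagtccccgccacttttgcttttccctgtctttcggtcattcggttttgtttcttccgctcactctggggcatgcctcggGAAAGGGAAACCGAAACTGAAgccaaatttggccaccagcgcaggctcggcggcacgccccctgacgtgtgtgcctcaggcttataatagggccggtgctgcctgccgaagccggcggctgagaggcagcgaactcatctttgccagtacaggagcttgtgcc
IFIT5, chr10:89414498-89414577, plus strand: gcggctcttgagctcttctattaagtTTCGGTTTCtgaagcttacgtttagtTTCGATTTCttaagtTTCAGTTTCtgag
ISG20, chr15:88638946-88639025, plus strand: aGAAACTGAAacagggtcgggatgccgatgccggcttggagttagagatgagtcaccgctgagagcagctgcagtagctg

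In IFIT1 the motif stood 115 and 102 bases before the start, on the opposite strand. IFI44 had it 17 bases before the start of the promoter shown, and the same match lay 59 bases before another annotated start. IFI44L had it 164 and 73 bases before the start, inside a repeated stretch of sequence. ISG15 had 3 overlapping matches, 113, 107 and 101 bases before the start. The IFIT5 window held 3 matches, at 44, 18 and 3 bases before the start, and the ISG20 window held 1, at 69 bases. TRIM22 and GBP2, which were also high in VHL cells, have no entry in the table. The motif was found in 28 of the 47 promoters of the interferon genes (59.6%), against 8.11% of all 35116 promoters in the table. Counted by gene, it was in 24 of the 34 interferon genes (70.6%), against 9.86% of all 27305 genes. It was in 13 of 21 genes called higher in VHL cells in control medium (61.9%), in 3 of 4 called lower (75%), and in 8 of 9 not called (88.9%). These shares were not tested against each other. A GAS-like motif, TTCNNNGAA, which reads as the same letters on both strands, was in 12 of the 47 promoters (25.5%), against 7.66% of all. A match describes the letters only.

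The deposited values are log2 expression values with array medians between 7.12 and 7.18. The labels call the replicates biological without saying that they were separate cultures, so p-values measure the spread between these samples. VHL itself checked nothing, since its probe set was dim in every group, at a mean log2 value of 5.94 ± 0.01 and 5.99 ± 0.03 in deprived and control VHL cells and 5.99 ± 0.11 and 5.85 ± 0.04 in deprived and control Vec cells (SD, n = 3 each). Of 10 listed renal carcinoma markers, 9 lay above the median gene, and 0 of 5 measured blood cell markers and 0 of 4 endothelial markers did. The summed log2 level of the blood markers ran from 26.2 to 27.2 over VHL arrays and from 25.8 to 26.3 over Vec arrays. That of the renal markers ran from 101.7 to 102.4 over VHL arrays and from 107.2 to 107.5 over Vec arrays. The widest gap was that of CA12, at means of 8.09 and 7.95 in deprived and control VHL cells against 11.09 and 11.15 in Vec cells. KRT19 came next, at 8.73 and 8.82 against 10.21 and 10.18. PAX2 and CDH6 had slightly higher means in VHL cells in both media. The part of the blood and renal markers in the results below was not tested. In bulk RNA, fewer cells with a transcript and less of it per cell cannot be told apart.

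Most interferon genes were higher in VHL cells than in Vec cells, in both media. The interferon genes were listed with earlier results of these data known, and how far that choice shaped the shares below was not tested. A gene is called higher or lower when its adjusted p is under 0.05 in limma, with Benjamini-Hochberg adjustment over the 11963 genes. In deprived medium 25 of 44 genes were called higher in VHL cells (56.8%), against 24.2% of all genes. In control medium 25 were also called higher, against 23.1% of all genes. Only 5 of 44 were called lower in each medium (11.4%), against 23% of all genes in either medium. The median log2 difference, VHL minus Vec, over the 44 genes was 0.43 in deprived and 0.30 in control medium, and over all genes it was 0.00 in both. The comparisons in the 2 media share no arrays, but they share the 2 lines and 1 estimate of the spread from the fit. In both of them 24 genes were called higher (96% of the calls in either), with IFIT2 called in control medium alone and IRF7 in deprived medium alone. Over all genes, 81.6% of the higher calls in deprived and 85.6% of those in control medium were shared. ISG20, IFIT5, IRF1 and TRIM14 were called lower in both media (80% of the calls in either, against 83.2% and 83.1% over all genes), IRF2 in control medium alone and EIF2AK2 in deprived medium alone. A change of at least 2-fold was reached by 10 higher genes and 1 lower gene in deprived medium, against 2.19% of all genes in each direction. In control medium it was reached by 8 higher genes and 1 lower gene, against 2.03% and 2.23% of all genes. Every gene called in these comparisons had VHL and Vec arrays that did not overlap. That was so for 33 of the 44 genes in deprived and 32 in control medium, called or not. Over all genes it was so for 54.2% and 53.2%, so arrays that do not overlap were common between these lines.

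**Figure D1:**
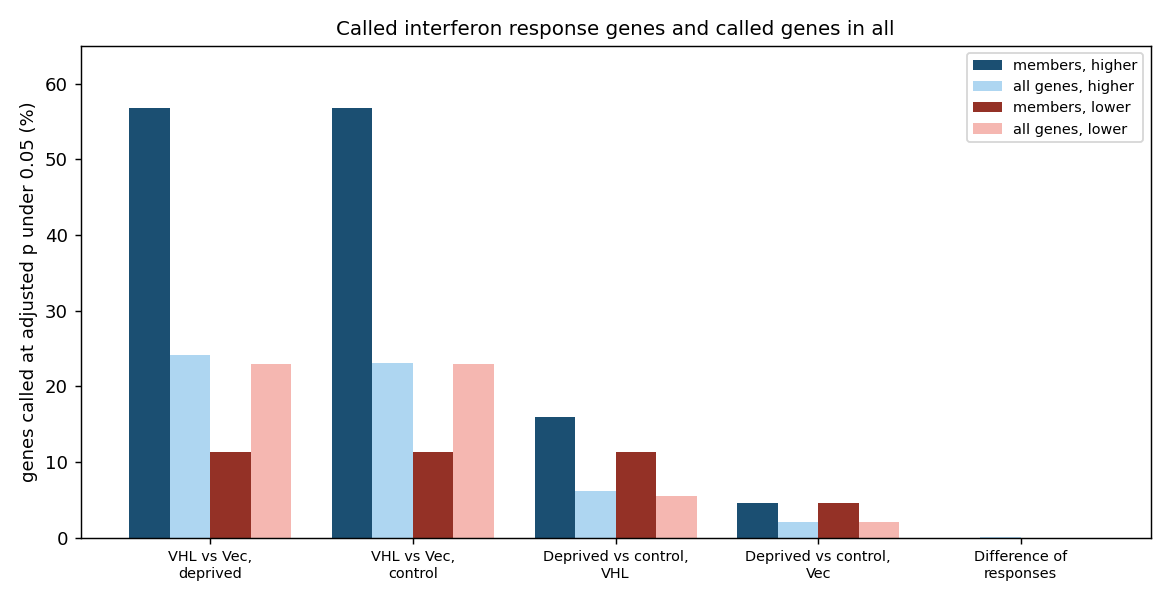
Bars give the share of genes, in percent, called higher or lower at an adjusted p under 0.05 in each of 5 comparisons, for the 44 measured interferon genes and for all 11963 genes. Interferon genes called higher in VHL cells make up 56.8% in both media, against 24.2% and 23.1% of all genes; for the difference of responses 0 interferon genes were called and the bars for all genes, 0.125% and 0.00836%, are too low to see.

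**Figure D2:**
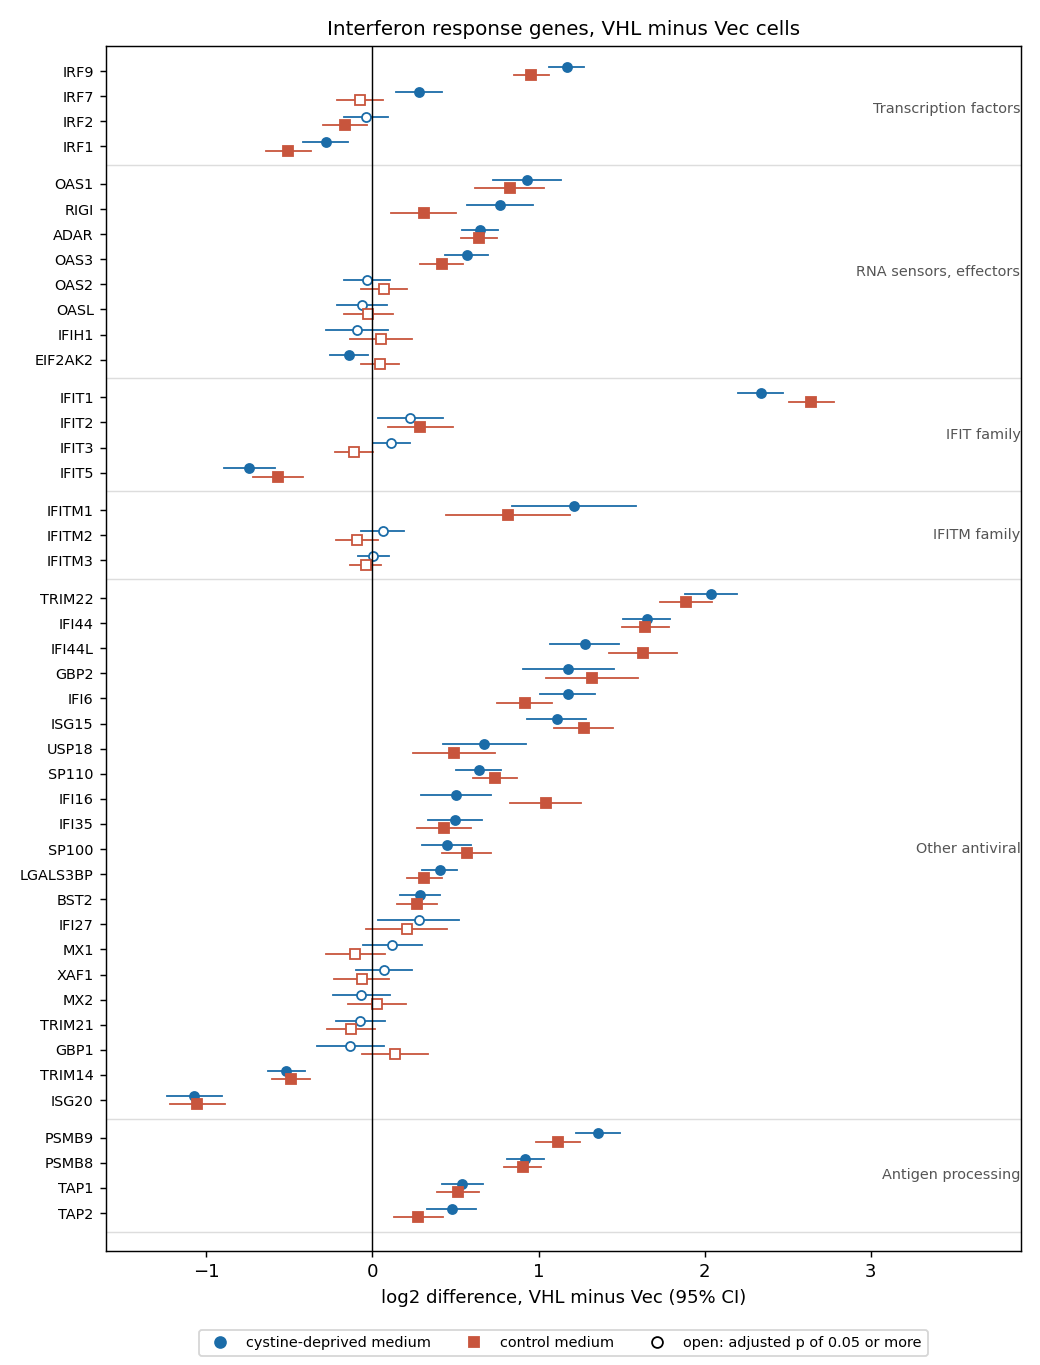
Points give the log2 difference, VHL minus Vec, for each of the 44 interferon genes with its 95% confidence interval, in deprived and control medium, grouped by role; filled points passed the threshold. IFIT1 stands furthest to the right, at 2.34 and 2.64, and ISG20 furthest to the left, at -1.07 and -1.05.

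Among the transcription factors, IRF9 was higher in VHL cells and IRF1 was lower. IRF9 is the DNA-binding partner of the STAT proteins in the type I interferon response. It read 8.99, 9.02 and 9.04 in deprived and 8.66, 8.81 and 8.81 in control VHL cells, against 7.83, 7.88 and 7.84 in deprived and 7.80, 7.82 and 7.79 in control Vec cells. All VHL arrays lay above all Vec arrays, with a log2 difference of 1.17 ± 0.05 in deprived medium (2.25-fold, limma adjusted p = 5.57e-10) and 0.96 ± 0.05 in control medium (1.94-fold, limma adjusted p = 3.35e-09; ± is the standard error of the fit). IRF1, an activator first found through the interferon-beta promoter, averaged 8.78 ± 0.13 in deprived and 8.42 ± 0.05 in control VHL cells, against 9.06 ± 0.06 and 8.93 ± 0.02 in deprived and control Vec cells (SD, n = 3 each). It was lower in VHL cells by log2 differences of -0.28 ± 0.06 in deprived medium (limma adjusted p = 0.00215) and -0.50 ± 0.06 in control medium (limma adjusted p = 1.51e-05). IRF7, which drives interferon-alpha genes, was 0.28 ± 0.06 higher in VHL cells in deprived medium (limma adjusted p = 0.00235) and had a difference of -0.07 in control medium, with a 95% interval of -0.21 to 0.07. IRF2, a repressor that competes with IRF1, had -0.17 in control medium (limma adjusted p = 0.0388), a call that was lost without any 1 of 5 of the 6 arrays compared, all but VHL control replicate 3 (limma adjusted p 0.0512 to 0.174).

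Of the 8 RNA sensors and RNA-acting enzymes, 4 were called higher in VHL cells in both media. ADAR, which edits adenosines in double-stranded RNA, read 12.42, 12.37 and 12.33 in deprived and 12.31, 12.38 and 12.45 in control VHL cells, against 11.67, 11.74 and 11.76 in deprived and 11.78, 11.71 and 11.73 in control Vec cells. Its groups kept apart in both media, with log2 differences of 0.65 ± 0.05 and 0.64 ± 0.05 in deprived and control medium. OAS1, a synthetase of the 2-5A messenger that switches on RNase L, read 7.56, 7.35 and 7.22 in deprived and 7.44, 7.52 and 7.16 in control VHL cells, against 6.45, 6.41 and 6.47 in deprived and 6.45, 6.59 and 6.60 in control Vec cells. OAS3, an enzyme of the same family, read 9.08, 9.12 and 8.96 in deprived and 8.90, 9.03 and 9.05 in control VHL cells, against 8.51, 8.42 and 8.52 in deprived and 8.60, 8.51 and 8.62 in control Vec cells. Both lay higher on every VHL array, by 0.93 and 0.83 for OAS1 and by 0.57 and 0.42 for OAS3 in deprived and control medium. RIGI, a sensor of viral RNA ends, read 7.06, 7.0 and 6.90 in deprived and 6.75, 6.69 and 6.82 in control VHL cells, against 6.47, 6.14 and 6.05 in deprived and 6.46, 6.51 and 6.37 in control Vec cells. Its groups were apart in both media, but the difference was 0.77 ± 0.09 in deprived medium (limma adjusted p = 9.84e-06) and 0.31 ± 0.09 in control medium (limma adjusted p = 0.0127), where it missed the threshold without Vec control replicate 3 (limma adjusted p = 0.0530). OAS2 was dim, at a mean log2 value of 5.19, and its differences of -0.03 and 0.07 in deprived and control medium were not called. IFIH1, a sensor of long double-stranded RNA, and OASL, a family member without synthetase activity, were not called in either medium either. EIF2AK2, the kinase PKR, had -0.14 in deprived medium (limma adjusted p = 0.0439), a call lost without any 1 of the 6 arrays compared.

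The IFIT family, which binds viral RNA, split between its members. IFIT1 read 7.37, 7.28 and 7.45 in deprived and 7.91, 7.93 and 7.88 in control VHL cells, against 4.90, 5.10 and 5.08 in deprived and 5.28, 5.31 and 5.20 in control Vec cells. No Vec array came near the VHL arrays, and the differences were 2.34 ± 0.06 in deprived medium (5.05-fold, limma adjusted p = 6.69e-12) and 2.64 ± 0.06 in control medium (6.24-fold, limma adjusted p = 1.95e-12). The Vec values lay under 5.95, the lower quartile of all gene means, where background signal limits a fold. IFIT5 read 9.14, 9.14 and 9.22 in deprived and 9.54, 9.21 and 9.30 in control VHL cells, against 9.92, 9.86 and 9.94 in deprived and 9.93, 9.90 and 9.91 in control Vec cells. It was lower on every VHL array, by log2 differences of -0.74 ± 0.07 in deprived medium (limma adjusted p = 1.24e-06) and -0.57 ± 0.07 in control medium (limma adjusted p = 1.54e-05). The second IFIT5 probe set was lower as well, at -0.45 and -0.33. IFIT2 had differences of 0.23 and 0.29 in deprived and control medium and was called in control medium alone (limma adjusted p = 0.0179), but not without VHL control replicate 3 or Vec control replicate 1. It was also called in deprived medium without Vec deprived replicate 1 or 2 (limma adjusted p = 0.0338 and 0.0402). IFIT3, which binds and stabilises IFIT1, had 0.12 in deprived and -0.11 in control medium. Neither of these was called, although the deprived one was without Vec deprived replicate 3 (limma adjusted p = 0.0338).

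Of the IFITM family, membrane proteins that hinder viral entry, IFITM1 alone was called. It averaged 7.41 ± 0.12 in deprived and 7.19 ± 0.23 in control VHL cells, against 6.19 ± 0.28 and 6.38 ± 0.35 in deprived and control Vec cells (SD, n = 3 each). The differences were 1.21 ± 0.17 and 0.82 ± 0.17 in deprived and control medium (limma adjusted p = 5.33e-05 and 0.00142). IFITM2 had 0.06 and -0.09, with 95% intervals of -0.07 to 0.19 and -0.22 to 0.04. IFITM3 had 0.01 and -0.04, with intervals of -0.09 to 0.10 and -0.13 to 0.05. The 3 proteins are close in sequence, and how far their probe sets share signal was not tested.

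The other antiviral genes held 13 of the calls for higher and 2 of the calls for lower, in both media, among 21 genes. TRIM22, a ubiquitin ligase that restricts retroviruses, read 9.11, 9.30 and 9.29 in deprived and 9.48, 9.54 and 9.36 in control VHL cells, against 7.10, 7.24 and 7.24 in deprived and 7.66, 7.60 and 7.46 in control Vec cells. IFI44 read 8.41, 8.45 and 8.60 in deprived and 9.01, 8.84 and 8.88 in control VHL cells, against 6.84, 6.77 and 6.90 in deprived and 7.19, 7.28 and 7.33 in control Vec cells. Its neighbour IFI44L read 7.57, 7.89 and 7.84 in deprived and 7.73, 7.49 and 7.53 in control VHL cells, against 6.58, 6.37 and 6.52 in deprived and 5.90, 5.86 and 6.09 in control Vec cells. All VHL arrays lay above all Vec arrays for these 3 genes. TRIM22 differed by 2.04 and 1.89 in deprived and control medium, IFI44 by 1.65 and 1.64, and IFI44L by 1.28 and 1.63. A second, dimmer IFI44 probe set, at a mean log2 value of 4.003, showed differences of 0.06 and -0.03 and was not called.

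ISG15, a ubiquitin-like protein that is joined to other proteins, read 8.93, 8.76 and 8.69 in deprived and 8.69, 8.84 and 8.88 in control VHL cells, against 7.75, 7.63 and 7.66 in deprived and 7.69, 7.49 and 7.41 in control Vec cells. USP18, the protease that takes ISG15 off and dampens receptor signalling, was higher too, by 0.67 ± 0.11 and 0.49 ± 0.11 in deprived and control medium. GBP2, a large GTPase that coats vacuoles holding pathogens, read 6.88, 7.26 and 6.85 in deprived and 6.91, 7.06 and 6.59 in control VHL cells, against 5.95, 5.83 and 5.66 in deprived and 5.65, 5.48 and 5.46 in control Vec cells. The arrays of the 2 lines did not overlap for either ISG15 or GBP2, with differences of 1.11 and 1.27 for ISG15 and of 1.18 and 1.32 for GBP2 in deprived and control medium. The Vec means of GBP2 lay under 5.95, as for IFIT1, so background limits its fold. IFI6, a small membrane protein that blocks flavivirus replication, read 8.57, 8.32 and 8.35 in deprived and 8.07, 8.13 and 8.12 in control VHL cells, against 7.29, 7.34 and 7.08 in deprived and 7.11, 7.25 and 7.21 in control Vec cells. IFI16, a nuclear DNA sensor, read 9.46, 9.74 and 9.74 in deprived and 9.82, 9.90 and 9.57 in control VHL cells, against 9.07, 9.10 and 9.26 in deprived and 8.74, 8.81 and 8.61 in control Vec cells. Both were higher on all VHL arrays, IFI6 by 1.18 and 0.92 and IFI16 by 0.50 and 1.04 in deprived and control medium.

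SP110, a nuclear body protein, read 9.60, 9.73 and 9.64 in deprived and 9.77, 9.89 and 9.96 in control VHL cells, against 8.92, 9.10 and 9.03 in deprived and 9.13, 9.17 and 9.12 in control Vec cells. The groups were apart by 0.64 and 0.74 in deprived and control medium. Its relative SP100, which organises PML nuclear bodies, was called higher from its brightest probe set, at 0.45 and 0.57. Among its 5 probe sets, however, 2 were called higher and 2 lower, and the mean of all 5 gave 0.01 and 0.08 in deprived and control medium, neither called. IFI35, LGALS3BP, a secreted glycoprotein, and BST2, which tethers budding virus to the cell, were higher by between 0.27 and 0.50 in both media.

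ISG20, an exonuclease that degrades viral RNA, went the other way. It read 5.83, 5.99 and 5.88 in deprived and 5.91, 5.76 and 5.97 in control VHL cells, against 6.98, 7.08 and 6.86 in deprived and 6.83, 6.94 and 7.04 in control Vec cells. Every VHL array was lower, with log2 differences of -1.07 ± 0.08 in deprived medium (limma adjusted p = 8.13e-08) and -1.05 ± 0.08 in control medium (limma adjusted p = 9.96e-08), and the second ISG20 probe set gave -0.84 and -0.72. The VHL means of ISG20 lay under 5.95, so background limits this fold too. TRIM14, a mitochondrial adaptor of RNA sensing, read 8.72, 8.77 and 8.82 in deprived and 8.87, 8.81 and 8.79 in control VHL cells, against 9.33, 9.28 and 9.24 in deprived and 9.40, 9.24 and 9.31 in control Vec cells. It was lower on all VHL arrays, by log2 differences of -0.52 and -0.49, and its next brightest probe set gave -0.54 and -0.43. A dimmer TRIM14 probe set went the opposite way, at 0.31 in deprived medium (limma adjusted p = 0.00975, each probe set tested on its own) and 0.14 in control medium. MX1 and MX2, dynamin-like GTPases that trap viral particles, were dim, at mean log2 values of 5.06 and 5.30. MX1 had differences of 0.12 and -0.10, and MX2 of -0.07 and 0.03, in deprived and control medium, with no call. XAF1, TRIM21, GBP1 and IFI27 were not called either. IFI27 was nearest to the threshold, at 0.28 in deprived medium (limma adjusted p = 0.0568), and passed it there without VHL deprived replicate 3 and in control medium without Vec control replicate 1, and GBP1 passed it in control medium without VHL control replicate 3.

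**Figure D3:**
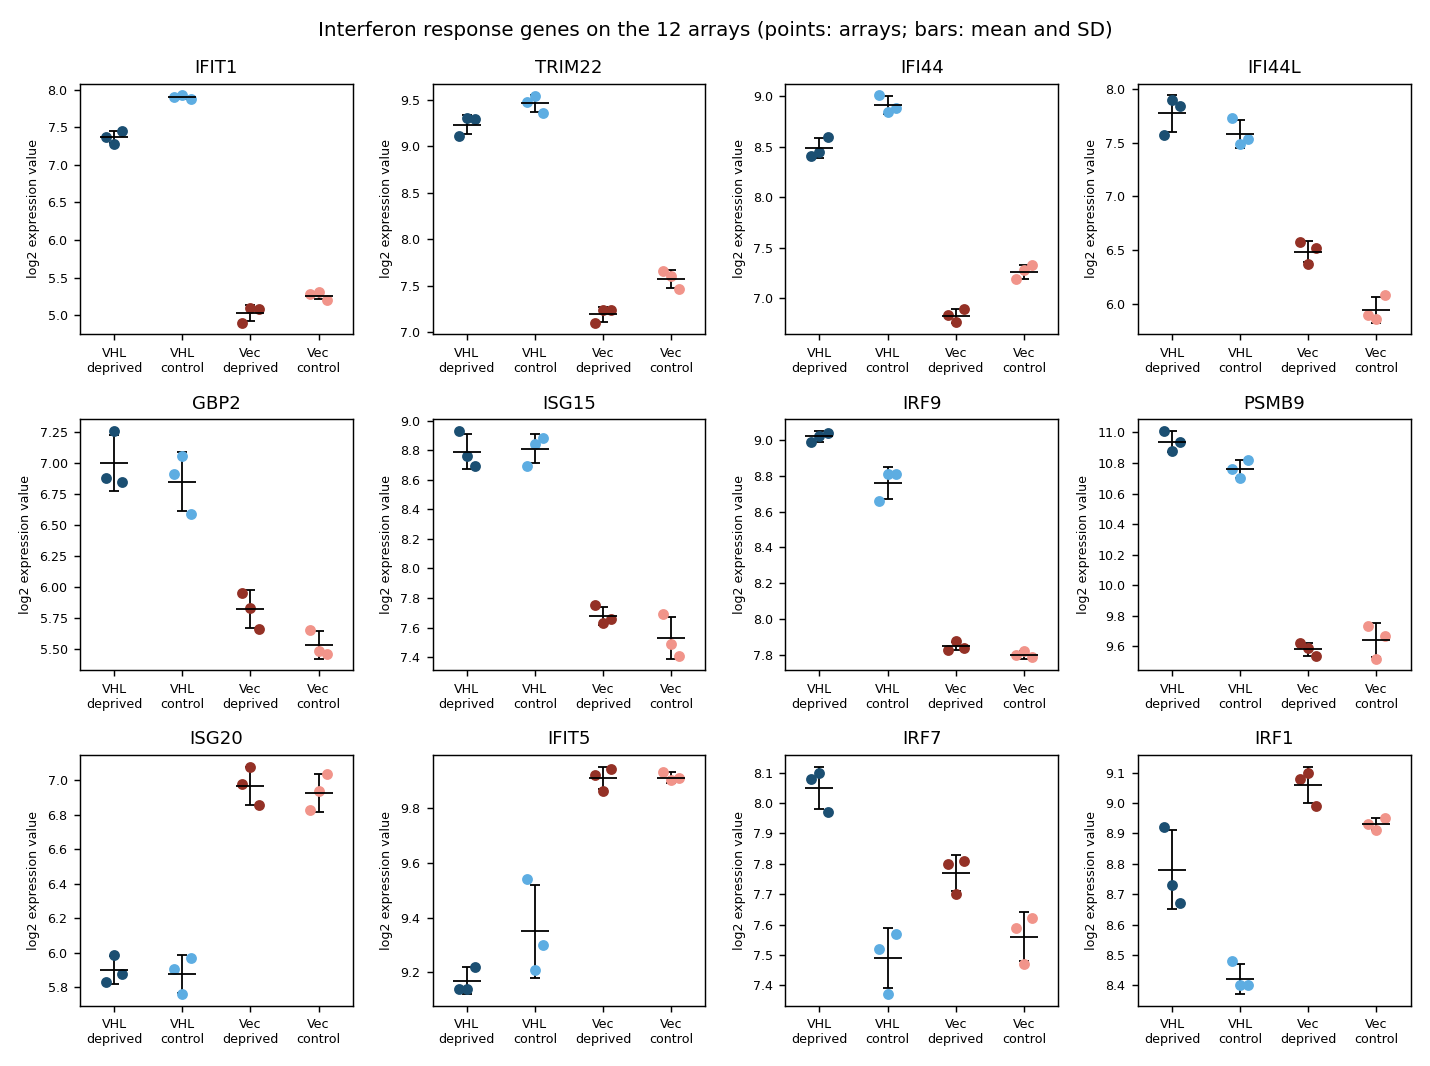
Each panel plots the log2 expression value of 1 interferon gene on the 12 arrays, with points for arrays and bars for the mean and SD of each group of 3. VHL arrays sit above Vec arrays for IFIT1, TRIM22, IFI44, IFI44L, GBP2, ISG15, IRF9 and PSMB9, and below them for ISG20 and IFIT5; IRF7 and IRF1 also differ between media in VHL cells.

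All 4 antigen processing genes were higher in VHL cells in both media. PSMB9, a catalytic subunit of the immunoproteasome, read 11.01, 10.88 and 10.94 in deprived and 10.76, 10.70 and 10.82 in control VHL cells, against 9.62, 9.59 and 9.54 in deprived and 9.73, 9.52 and 9.67 in control Vec cells. PSMB8, another of its catalytic subunits, read 11.26, 11.24 and 11.22 in deprived and 11.14, 11.16 and 11.23 in control VHL cells, against 10.27, 10.29 and 10.41 in deprived and 10.33, 10.21 and 10.28 in control Vec cells. TAP1, one chain of the transporter that carries peptides into the endoplasmic reticulum, read 9.78, 9.69 and 9.59 in deprived and 9.63, 9.62 and 9.74 in control VHL cells, against 9.18, 9.12 and 9.14 in deprived and 9.19, 9.07 and 9.16 in control Vec cells. None of the VHL arrays overlapped the Vec arrays for these genes. The differences in deprived and control medium were 1.36 ± 0.06 and 1.12 ± 0.06 for PSMB9, 0.92 ± 0.05 and 0.90 ± 0.05 for PSMB8, and 0.54 ± 0.06 and 0.52 ± 0.06 for TAP1. TAP2, the other chain of the transporter, had 0.48 ± 0.07 and 0.28 ± 0.07 (limma adjusted p = 5.42e-05 and 0.00419).

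Several of the 44 genes are neighbours in the genome, and neighbours often differed in how they stood in VHL cells. On chromosome 10 IFIT1 was higher and IFIT5 lower, while IFIT3 was not called. On chromosome 11 IFITM1 was called and IFITM2 and IFITM3 on either side of it were not. OAS1 and OAS3 were higher on chromosome 12 and OAS2 was not called, and on chromosome 1 GBP2 was higher and GBP1 was not called. The TAP2, PSMB8, TAP1 and PSMB9 cluster on chromosome 6 and the IFI44L and IFI44 pair on chromosome 1 were higher throughout. The differences between neighbours were not tested.

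**Figure D4:**
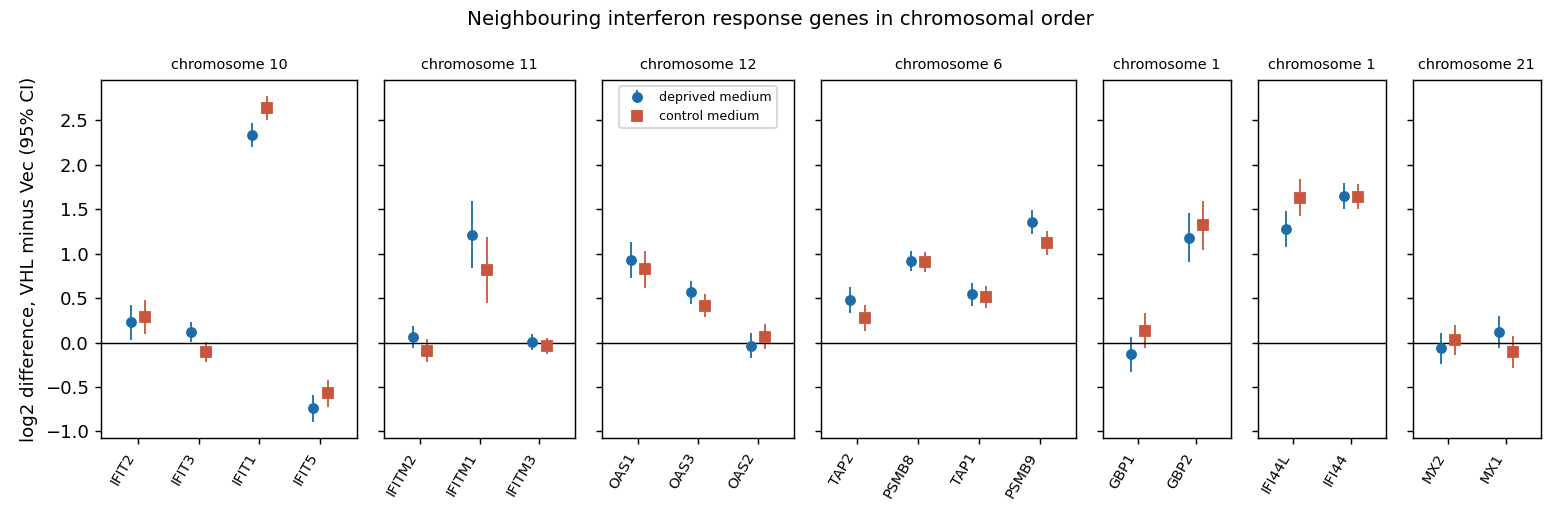
Points give the log2 difference, VHL minus Vec, with its 95% confidence interval, for interferon genes that lie side by side, in chromosomal order, in deprived and control medium. IFIT1 at 2.34 and 2.64 lies close to IFIT5 at -0.74 and -0.57, and IFITM1 stands between 2 genes near 0.

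Genes that act upstream of or beside the interferon genes were counted from lists chosen with earlier results of these data known. How far that choice shaped the shares called was not tested. All calls of these genes are from the fit over all genes. Of 9 measured interferons and receptors, 4 were called higher (44.4%) and 1 lower (11.1%) in VHL cells in deprived medium. In control medium 3 were called higher (33.3%) and 1 lower (11.1%). The shares of all genes were 24.2% and 23.1% higher in deprived and control medium, and 23% lower in either. IL10RB, a chain of the lambda interferon receptor, was higher by 0.68 and 0.71 in deprived and control medium, IFNGR1, the ligand-binding chain for gamma interferon, by 0.44 and 0.29, and IFNAR2, a chain of the type I receptor, by 0.27 and 0.29. IFNAR1, the other type I chain, named after its value was seen, was lower, at -0.32 and -0.34. The measured interferons IFNA1, IFNA2, IFNB1 and IFNG were not called, but their mean log2 values of 4.76, 4.32, 5.50 and 3.94 all lay under 5.95, where background signal limits what can be seen.

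Of 12 measured signalling genes and brakes, 3 were called higher (25%) and 5 lower (41.7%) in either medium. PTPN6, a phosphatase that restrains JAK signalling, was higher by 0.71 and 0.56, while SOCS1, an inhibitor of JAK kinases, was lower at -0.32 and -0.57, and PTPN11, another phosphatase, at -0.52 and -0.35, in deprived and control medium. Of 15 measured nucleic acid sensing genes, 3 were called higher (20%) and 4 lower (26.7%) in deprived medium and 3 higher (20%) and 6 lower (40%) in control medium. IKBKE, a kinase that activates IRF3, was higher by 0.69 and 0.68 and IRF3 by 0.60 and 0.49, while TLR3, a receptor for double-stranded RNA, was lower at -0.71 and -0.94. Over all genes 24.2% and 23.1% were called higher in deprived and control medium, and 23% lower in either.

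Of 14 measured antigen presentation genes, 11 were called higher in deprived (78.6%) and 12 in control medium (85.7%), and 0 lower. Of all genes 24.2% and 23.1% were called higher, and 23% lower in either medium. CIITA and HLA-DRA were not called in either medium, nor ERAP1 in deprived medium. HLA-DRA was dim, at a mean log2 value of 4.95. CD74, the chaperone of class II molecules, was higher by 1.94 and 1.999, HLA-F by 0.74 and 0.62, and HLA-B by 0.62 and 0.61, in deprived and control medium. HLA genes are close in sequence, so their probe sets may share signal. Of 26 further interferon-induced genes, 13 were called higher (50%) and 2 lower (7.69%) in deprived medium. In control medium 12 were called higher (46.2%) and 2 lower (7.69%). C1S, a protease of the complement cascade, was higher by 2.25 and 2.40, its partner C1R by 1.01 and 0.86, and PLSCR1, a scramblase with antiviral activity, by 0.90 and 0.88.

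Fewer of the interferon genes differed between the media after 6 h, and by less, than between the lines. In VHL cells 7 of 44 genes were called higher without cystine (15.9%), against 6.16% of all genes, and 5 were called lower (11.4%), against 5.48% of all genes. The median log2 difference, deprived minus control, was 0.02 over the 44 genes and 0.01 over all genes. With median centring of each array the counts were 5 higher and 7 lower: IFI35 and LGALS3BP lost their calls, and TRIM21 and TRIM22 were called lower. The higher genes with the values as deposited were IRF7, IRF1, XAF1, IFI6, IRF9, IFI35 and LGALS3BP, and the lower ones IFIT1, IFI44, GBP1, EIF2AK2 and SP110.

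IRF7 averaged 8.05 ± 0.07 in deprived and 7.49 ± 0.10 in control VHL cells (SD, n = 3 each), a difference of 0.56 ± 0.06 (1.48-fold, limma adjusted p = 1.22e-04). IRF1 was higher by 0.35 ± 0.06 (limma adjusted p = 0.00324) and IRF9 by 0.26 ± 0.05 (limma adjusted p = 0.00509), and IRF2 was not called. XAF1, an antagonist of the apoptosis inhibitor XIAP, was higher by 0.35 ± 0.08 (limma adjusted p = 0.0122). IFIT1 and IFI44 fell in the same cells, as the array values above show, with every deprived VHL array below every control VHL array. Deprived and control VHL arrays did not overlap, in either direction, for 20 of the 44 genes and for 30.6% of all genes. The differences were -0.54 ± 0.06 for IFIT1 (limma adjusted p = 1.36e-04) and -0.42 ± 0.07 for IFI44 (limma adjusted p = 0.00136), and EIF2AK2 had -0.32 ± 0.05 (limma adjusted p = 0.00223). These 7 calls, of IRF7, IRF1, IRF9, XAF1, IFIT1, IFI44 and EIF2AK2, held without any 1 of the arrays compared. The groups of GBP1 overlapped, with a mean log2 difference of -0.37 ± 0.09 (limma adjusted p = 0.0223). Second probe sets of 3 of the lower genes were not called: those of GBP1, EIF2AK2 and IFI44 gave -0.08, -0.16 and -0.0149. Of the other SP110 probe sets, the brighter ones gave -0.22 and -0.28 and were called lower (limma adjusted p = 0.020 and 0.00367). The dimmest SP110 probe set gave -0.00625 and was not called. Each probe set was tested on its own. GBP1 was not called without VHL deprived replicate 1 or 3 or VHL control replicate 1 or 2, SP110 without VHL deprived replicate 1 or 3 or VHL control replicate 2 or 3, and IFI6 without VHL deprived replicate 1 or VHL control replicate 1 or 2. IFI35 lost its call without VHL deprived replicate 1 or 2 or VHL control replicate 1 or 2, and LGALS3BP lost it without any 1 of the 6 arrays. Without VHL deprived replicate 1, or without VHL control replicate 1 or 2, 4 genes were called higher, and without VHL deprived replicate 1 or 3, 3 were called lower. IFIT5 was called lower, at -0.25, without VHL control replicate 2, and TRIM22, at -0.28, without VHL control replicate 3.

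In Vec cells 2 of 44 genes were called higher without cystine (4.55%), against 2.11% of all genes, and 2 were called lower, against 2.06% of all genes. The higher ones were IFI44L, by 0.54 ± 0.10 (limma adjusted p = 0.00712), and IFI16, by 0.42 ± 0.10 (limma adjusted p = 0.0313). The lower ones were IFI44, at -0.43 ± 0.07 (limma adjusted p = 0.00246), and TRIM22, at -0.38 ± 0.07 (limma adjusted p = 0.0111). Deprived and control Vec arrays did not overlap for any of these 4 genes, whose array values are given above. That was so for 15 of the 44 genes, called or not, and for 22.7% of all genes. IFI44 was the only one of the 44 called in the same direction in both lines, 1 of the 2 lower calls and 0 of the 2 higher calls in Vec cells. Over all genes 59.5% of the lower and 75.1% of the higher calls in Vec cells were shared with VHL cells. Just short of the threshold were IFIT1 in Vec cells, at -0.23 (limma adjusted p = 0.0533), and TRIM22 in VHL cells, at -0.23 (limma adjusted p = 0.0573). The Vec values of IFIT1 lay under 5.95, near background. Of the genes called in 1 line alone, only IFI16 had the opposite sign in the other, at -0.11 in VHL cells. The dim second IFI44 probe set gave -0.11 in Vec cells and was not called. The adjacent IFI44L was higher without cystine in Vec cells. The IFI16 call was lost without any 1 of the 6 arrays compared (limma adjusted p 0.0512 to 0.117), leaving 1 gene called higher. All 3 IFI16 probe sets were called higher over all arrays when each was tested on its own. The dimmer ones gave 0.31 and 0.43 (limma adjusted p = 0.0425 and 0.00335). The TRIM22 call was lost without Vec deprived replicate 1 or Vec control replicate 1 (limma adjusted p = 0.0558 and 0.0564), the second of which left 1 gene called lower. RIGI was called lower, at -0.35, without Vec deprived replicate 1 (limma adjusted p = 0.0209).

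**Figure D5:**
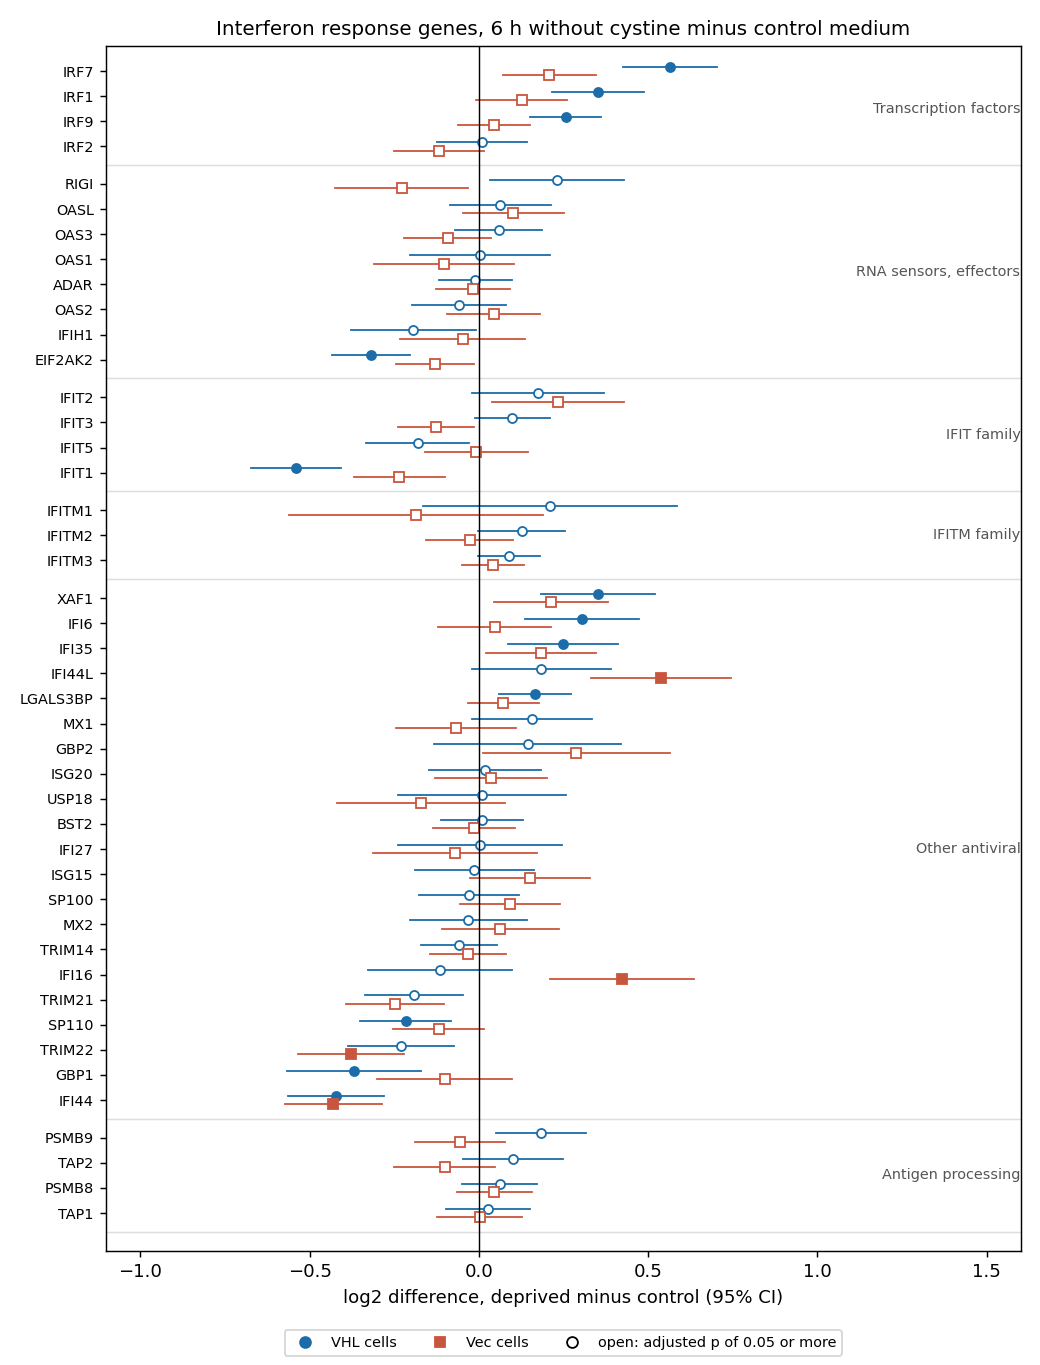
Points give the log2 difference, deprived minus control medium, for each of the 44 interferon genes with its 95% confidence interval, in VHL and Vec cells, grouped by role; filled points passed the threshold. Values run from -0.54 for IFIT1 to 0.56 for IRF7 in VHL cells, and IFI44 is filled in both lines.

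No interferon gene was called in the difference of the medium responses, VHL minus Vec, by limma. Of all genes 0.125% were called with a higher response in VHL cells and 0.00836% with a lower one. At an unadjusted p under 0.05, 7 of the 44 genes had a higher and 4 a lower response in VHL cells, 25% in all against 9.83% of all genes. IRF7 had log2 responses of 0.56 in VHL cells and 0.21 in Vec cells, a difference of 0.36 with a limma adjusted p of 0.232. IFI16 had a difference of -0.54 (limma adjusted p = 0.232), RIGI of 0.46 (limma adjusted p = 0.283) and IFIT1 of -0.30 (limma adjusted p = 0.298). RIGI passed the threshold without Vec deprived replicate 1, at 0.58 (limma adjusted p = 0.0419). The same term is the change in the VHL to Vec difference between the media, so no such change was called for any of the 44 genes over all 12 arrays.

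Deprivation changed few genes of the related lists. In VHL cells it gave 2 higher calls and 0 lower among 9 interferons and receptors (22.2% higher), 1 and 1 among 12 signalling genes, 0 and 1 among 15 sensing genes, 1 and 0 among 14 antigen presentation genes, and 2 and 1 among 26 further genes, against 6.16% and 5.48% of all genes. In VHL cells the receptors IFNGR1 and IFNGR2, the brake SOCS3, HLA-F, WARS1, an aminoacyl-tRNA synthetase, and CASP4, an inflammatory caspase, were called higher, and PTPN11, MYD88, an adaptor of Toll-like receptors, and ZC3HAV1, which binds viral RNA, lower. In Vec cells WARS1 was called higher and MYD88, SOCS1 and ZC3HAV1 lower. These genes are named after their values were seen. WARS1 had log2 differences of 0.75 ± 0.06 in VHL cells and 0.69 ± 0.06 in Vec cells, the ZC3HAV1 differences were -0.59 ± 0.06 and -0.46 ± 0.06, and those of MYD88 were -0.30 ± 0.05 and -0.24 ± 0.05. The WARS1 and ZC3HAV1 differences in VHL cells were larger than any among the 44 interferon genes. No gene of these lists was called in the difference of the responses.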

How the data were processed

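The deposited values are log2 expression values, covering 22215 probe sets on each of 12 arrays. The log2 scale was read from the deposited values, and how the authors normalized them is not given in the sources used here. No further scaling was applied. Of the probe sets 19064 named 1 gene, and the brightest probe set on average stood for each of 11963 genes. Symbols followed RefSeq (GRCh38.p14). Group means were fitted with limma 3.58.1 (R 4.3.3), leaving 8 residual degrees of freedom, or 12.7 moderated. P-values are two-sided with Benjamini-Hochberg adjustment across all 11963 genes, and intervals are 95% confidence intervals. The fit was also run on simulated data, with an outcome that is not given here. Precision is limited by the 3 arrays per group.

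The 44 measured genes and the related lists were chosen with earlier results of these data known. Values on every array are given for 20 called genes, those with the smallest adjusted p, and up to 3 called genes are named for each related list. Residuals of arrays sharing a replicate number correlated between -0.268 and 0.235 (median 0.0526, 18 pairs), so arrays were treated as unpaired. Alternatives were quantile normalization, median centring, leaving out dim genes (mean log2 value up to 5.95), averaging all probe sets of a gene, dropping the _x_at and _s_at probe sets, a variance trend with robust moderation, the replicate number as a block, the compared groups alone, and leaving out each array.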

Additional observations from a re-analysis of the deposited data

How the results depend on the processing

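Over the 44 interferon genes, 3006 of 3215 gene results under the alternatives kept their direction and side of the threshold, 66 lost a call and 27 gained one. Direction turned in 3 results with a call and in 113 without one in either fit. Once the _x_at and _s_at probe sets were dropped, 30 of the genes were measured and the counts called fell: 14 higher and 2 lower in VHL against Vec cells in deprived medium, 14 and 3 in control medium, 4 and 3 in deprived against control VHL cells, and 1 and 0 in Vec cells. Of the calls lost between the lines, 12 in deprived and 11 in control medium belonged to genes with no such probe set left. Under this setting the VHL minus Vec difference of IFI44 was -0.0326 in control medium, that of TRIM14 was 0.31 and 0.14 in deprived and control medium, and those of CASP4 and CFB in deprived medium were -0.0719 and -0.0376. TRIM14, lower in the main fit, was thus among the 14 called higher in deprived medium. The deprivation differences of HLA-F and CASP4 in VHL cells were then -0.0188 and -0.0908. When all probe sets of a gene were averaged, ZC3HAV1 had VHL minus Vec differences of 0.23 and 0.31 in deprived and control medium and PIAS1 had 0.0187 in control medium. Leaving out dim genes gave 4 genes called lower in deprived Vec cells, and the compared groups alone gave 3 called lower in deprived VHL cells. The causes of these changes were not tested, beyond the smaller number of genes measured.

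Leaving out 1 array gave 25 to 26 genes called higher and 4 lower in VHL against Vec cells in deprived medium, and 24 to 25 higher and 4 to 5 lower in control medium. In deprived against control VHL cells it gave 4 to 6 higher and 3 to 5 lower, and in Vec cells 1 higher and 1 to 2 lower. The difference of responses had 0 to 1 called higher and 0 lower. With the replicate number as a block, 30 genes were called between the lines in deprived and 29 in control medium, 11 between media in VHL cells, 4 in Vec cells and 0 in the difference of responses. The block ended the calls of EIF2AK2, IRF2 and IFI35 and added IFI27. Median centring gave 5 genes called higher and 7 lower in deprived against control VHL cells. Group means at or under 5.95, near background, limit MX1, MX2 and OAS2 in all groups, IFIT1 and GBP2 in Vec cells, ISG20 in VHL cells and IFI27 in deprived Vec cells.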
